A study of Mus musculus with 12 samples.

Results

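To describe mammary tumors of the MMTV-Neu mouse before any drug, the 4 tumors from mice fed control diet were taken from a series of 12 tumors, and only their columns were used. They were chosen by their label and not by any measured value. The other 8 tumors came from mice fed retinoid X receptor (RXR) agonists and are not described. All 4 control mice were female MMTV-Neu mice whose tumors had reached 4 mm in diameter before they received 10 days of control diet, and their ages were not given. In this strain the MMTV promoter, which is active in mammary epithelium, drives the rat Neu (Erbb2) gene without an activating mutation, so that tumors arise one by one and each tumor is a separate event in a separate mouse. Flash-frozen pieces of whole tumor were used, so the RNA came from cancer cells together with stroma, vessels, immune cells and any neighbouring tissue. In such bulk RNA, fewer cells of a type and less RNA per cell cannot be told apart. The tumors are called tumor 1 to tumor 4 as labelled, and lists of values follow that order.

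ERBB2 is a receptor tyrosine kinase without a ligand of its own that signals as a partner of EGFR, ERBB3 and ERBB4, mainly through the MAP kinase and PI3K-AKT pathways. The mammary epithelium has an inner luminal layer, which makes milk and carries the keratins 8 and 18, and an outer myoepithelial layer with keratins 5 and 14 and smooth muscle actin. MMTV-Neu tumors are known as luminal tumors, and the milk genes of the luminal layer are under the control of prolactin, STAT5 and the transcription factor ELF5.

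The depth ran from 17192534 to 24223315 counted reads in a tumor, and the floor of detection used, 3 counts, equals 0.124 to 0.174 CPM (counts scaled to library size). Levels of different genes are compared as FPKM, which the authors computed relative to gene length and library size. The length implied by FPKM and counts was a median of 0.449 times the length listed for the gene and as little as 0.0616 times, so comparisons of levels between genes depend on which length is used. The tumors were alike across genes, with Spearman correlations between 0.964 (tumors 2 and 3) and 0.983 (tumors 3 and 4) over 13622 genes. Between 50 genes (tumors 3 and 4) and 226 genes (tumors 2 and 3) differed by more than 4-fold within a pair. Genes are not independent replicates, so these correlations are descriptions only.

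The epithelial markers matched the label. Epcam, an adhesion molecule of epithelial cells, had 1113, 1185, 990.3 and 1122 FPKM in tumors 1 to 4. Krt18 had 903, 899, 721 and 764 FPKM and its partner Krt8 had 569.8, 511, 458 and 478 FPKM. Each of these 3 genes was lowest in tumor 3, within a narrow range, and they ranked 90, 127 and 192 among the 13200 genes with a mean of at least 1 FPKM. Erbb2 itself had 39.7, 41.9, 38.1 and 35.9 FPKM, with a mean of 38.9 ± 2.51 FPKM (SD, n = 4). It ranked 3302 of 13200, far below the keratins. Its implied length was 3277 of 5210 bases listed. Erbb3 had 45.8, 54, 42.9 and 39.2 FPKM, above Erbb2 in every tumor, although the ranges of the 2 genes over the tumors overlapped. The reads counted here are those assigned to the mouse Erbb2 gene. How reads of the rat transgene were assigned was not tested, so this value is not a measure of the transgene. Erbb2 overlaps Mien1 on the opposite strand, and without a stated strand setting the reads of such pairs cannot be told apart.

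The other ERBB receptors differed in level. Egfr had 27.1, 18.6, 24.5 and 26.6 FPKM, below Erbb2 in every tumor, and Erbb4 had 4.36, 3.36, 4.58 and 4.72 FPKM, below Egfr in every tumor. The ranges over tumors of these 3 receptors did not overlap. Of 11 ERBB ligands, 5 passed the minimum of 1 CPM on average. Tgfa, a ligand of EGFR, had 25.8, 16.6, 40.5 and 35.7 FPKM and Egf had 9.89, 19.7, 34.4 and 24.6 FPKM, both lower in tumors 1 and 2 than in tumors 3 and 4. Nrg2, a neuregulin, was more even at 17.2, 21.7, 22.9 and 16.7 FPKM, and Btc had 5.99, 4.76, 3.26 and 4.19 FPKM. Areg, the EGFR ligand of ductal growth, had at most 0.186 FPKM, and Nrg3 had 0 counts in every tumor.

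Genes next to Erbb2, which are often gained with it in human HER2-positive cancer, ranged from silent to more abundant than Erbb2. Grb7, an adaptor that binds ERBB receptors, had 46.5, 55, 40 and 39 FPKM, and Pgap3 had 28.2, 31.2, 25.6 and 22.7 FPKM. Psmd3, a proteasome subunit, had 94.5, 106, 127 and 103 FPKM, above Erbb2 in every tumor, and Mien1 had 61.4, 68.6, 81.1 and 78 FPKM. Pnmt had 0 counts in every tumor. Tcap, a muscle gene in this region, had 4.36, 0.0477, 0.0569 and 0.0435 FPKM and is read with the other muscle genes further on.

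Luminal keratins far outweighed basal ones. The summed level of 7 basal keratins (Krt5, Krt6a, Krt6b, Krt14, Krt15, Krt16 and Krt17) was between 0.240 and 2.01 FPKM, against between 1197 and 1498 FPKM for the luminal keratins Krt7, Krt8, Krt18 and Krt19. Krt6a and Krt6b had 0 counts in every tumor, and Krt5 had 0, 0, 0.368 and 0 FPKM. Within the luminal keratins, Krt7 had 24.6, 37.8, 16.9 and 19.3 FPKM and Krt19, which many luminal breast cancers carry, reached no more than 1.80 FPKM. Trp63, the transcription factor of basal cells, had 0.978, 1.56, 0.378 and 0.347 FPKM. Acta2, the smooth muscle actin of myoepithelial cells, pericytes and myofibroblasts, had 21, 6.07, 6.54 and 7.56 FPKM, and tumor 1 was the highest. Oxtr, the oxytocin receptor of myoepithelial cells, had 13.1, 13.6, 2.94 and 8.63 FPKM, lowest in tumor 3.

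**Figure D1:**
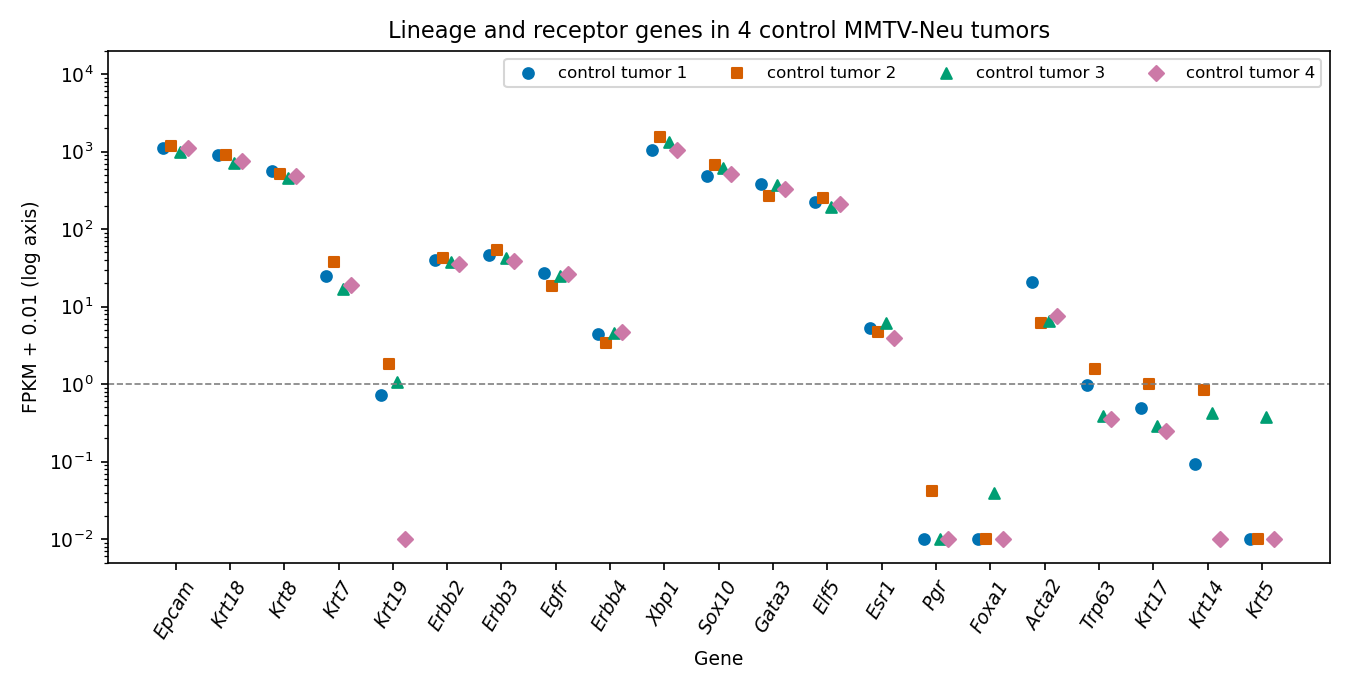
FPKM plus 0.01 on a log axis for lineage and receptor genes, 1 point per control tumor, with a dashed line at 1 FPKM. Epcam, Krt18 and Krt8 lie between 458 and 1185 FPKM, the ERBB receptors Erbb2 and Erbb3 near 40, and the basal keratins Krt17, Krt14 and Krt5 below 1 in every tumor.

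The hormone receptors and luminal transcription factors ranged from abundant to nearly absent, with 14 of 18 kept. Xbp1, a regulator of secretory capacity, had 1059, 1555, 1348 and 1050.2 FPKM. Gata3, the main luminal differentiation factor, had 381, 265, 371 and 326 FPKM. Kit, a receptor of luminal progenitor cells, had 291, 422, 242 and 262 FPKM, highest in tumor 2. Elf5, the factor of alveolar milk-producing cells, had 222, 254, 196 and 212 FPKM, and Ehf had 296, 269.9, 185 and 232 FPKM. Against these levels, the estrogen receptor gene Esr1 had 5.32, 4.67, 6.1 and 3.96 FPKM. Pgr, the progesterone receptor, had 3 counts in tumor 2 and none in the other tumors. Foxa1, the pioneer factor of estrogen receptor-positive cells, had 1 count in tumor 3 and none in the others, and a count of 0 at this depth allows up to 3 counts. Aldh1a3, an aldehyde dehydrogenase of luminal progenitors, varied most in this list at 3.55, 14.7, 0.695 and 1.6 FPKM, and Spdef had 10.4, 26.9, 24.7 and 8.21 FPKM. Aldh1a3 was highest in tumor 2, and Spdef was high in tumors 2 and 3. Sox10, a factor of neural crest and of mammary progenitor cells, had 492, 673, 617 and 509 FPKM. Of 7 Schwann cell genes listed 5 were kept and 4 had a mean of at least 1 FPKM. In that list Mbp had 24.2, 24.8, 27.3 and 24.9 FPKM, while Ngfr reached at most 0.0262 FPKM.

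Epithelial junction genes were high and varied about as much as genes in general. All 16 were kept, and their median SD on the log2 scale was 0.21, against 0.22 for all genes kept. Spint2, a protease inhibitor of epithelia, had 861, 724, 769 and 893 FPKM, and the tight junction claudins Cldn3 and Cldn7 had 628, 630.3, 472 and 509.7 and 298, 239, 253 and 278 FPKM. Of 10 regulators and markers of epithelial-mesenchymal transition, 6 were kept. Vim, the intermediate filament of mesenchymal cells, had 121, 43.6, 42 and 86.7 FPKM, highest in tumor 1. Zeb2 had 4.3, 2.77, 1.67 and 2.68 FPKM and Zeb1 3.7, 1.15, 2.84 and 3.23 FPKM.

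The RXR genes, which code for the targets of the drugs given to the other mice, and the genes of their partner receptors were measured at baseline. Rxra had 35.5, 50.6, 36.7 and 36.2 FPKM, Rxrb had 45.2, 66.1, 66.3 and 52.7 FPKM, and Rxrg was not kept, with a mean under 1 CPM. The ranges of Rxra and Rxrb over the tumors overlapped. Among the partners, the vitamin D receptor gene Vdr had 139, 182, 76.7 and 95.5 FPKM and the liver X receptor gene Nr1h2 had 98.5, 121, 115 and 94.8 FPKM. Rarg, the retinoic acid receptor with the highest level, had 46.6, 70, 63.8 and 45.1 FPKM. Of the 10 receptors kept, 8 were highest in tumor 2, against 27.4% of all genes kept.

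Milk protein genes led the list of abundant genes. The gene with the highest mean FPKM was Csn1s1, an alpha casein, with 20701, 25824, 18816 and 13486 FPKM. Csn3, kappa casein, had 17568, 21231, 13406 and 19274 FPKM, and Csn1s2a had 11152, 16597, 8196 and 7758 FPKM. Every tumor carried these 3 caseins at 7758 FPKM or more. Wfdc18, a secreted whey acidic protein family member of the mammary gland, had 16234, 12661, 10847 and 14226 FPKM. Lalba, the alpha-lactalbumin of lactose synthesis, had 3230.1, 5609.8, 3659.9 and 3209 FPKM, and Csn2, beta casein, had 3323, 5128, 423 and 2196 FPKM. Beta casein differed most among these, with tumor 3 the lowest by 12.1-fold against tumor 2.

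The remaining places among the 20 most abundant nuclear genes went to secreted, immune and housekeeping genes. Lcn2, the iron-siderophore binding lipocalin, had 5327, 10709, 2989 and 3199 FPKM, and Trf, transferrin, had 1938, 3369.9, 3964 and 3250.4 FPKM. Aqp5, a water channel of glands, had 3473, 3490.2, 6590.4 and 5887 FPKM, with tumors 3 and 4 above tumors 1 and 2. Mfge8, a milk fat globule protein, had 2655, 5276, 1129 and 1854 FPKM. H2-D1 and B2m, the chains of MHC class I, also ranked among these 20 and are described with that list. The translation genes Eef1a1, Tpt1, Rplp0 and Rplp1, the cytoskeletal gene Actb, Ly6e and the glycolytic aldolase gene Aldoc made up the rest, together with a microRNA gene model of 57 bases, Gm23935, whose FPKM is large for its short length and which is not interpreted. Eef1a1 was nearly constant at 9106, 9005, 9409 and 8539 FPKM. The 100 genes with the most counts held between 22.7% and 26.4% of each library, and mitochondrially encoded genes held between 1.64% and 2.82%.

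The promoters of Csn1s1 and Csn2 are shown because both caseins were abundant and beta casein varied more. Each is the RefSeq sequence (GRCm38.p6) from 250 bases before to 50 after the annotated start, and capitals mark TTCNNNGAA, the palindromic core bound by STAT factors. Csn1s1 lies on the plus strand at chr5:87665958-87666257 and Csn2 on the minus strand at chr5:87699376-87699675. Both strands were searched, and the motif reads the same on either.
Csn1s1: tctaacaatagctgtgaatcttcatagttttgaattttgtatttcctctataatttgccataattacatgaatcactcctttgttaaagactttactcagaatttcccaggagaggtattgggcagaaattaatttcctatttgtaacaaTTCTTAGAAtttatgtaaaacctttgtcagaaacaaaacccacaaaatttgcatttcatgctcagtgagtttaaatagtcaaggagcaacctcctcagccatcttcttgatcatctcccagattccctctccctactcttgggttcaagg
Csn2: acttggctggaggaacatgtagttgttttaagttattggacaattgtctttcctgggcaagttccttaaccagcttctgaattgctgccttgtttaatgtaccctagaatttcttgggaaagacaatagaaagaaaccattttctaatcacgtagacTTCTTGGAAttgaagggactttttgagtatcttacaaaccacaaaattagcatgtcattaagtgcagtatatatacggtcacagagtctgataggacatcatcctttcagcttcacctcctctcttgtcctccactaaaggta
The motif began 100 bases before the start of Csn1s1 and 93 bases before that of Csn2. It was present in the promoters of 4 of 12 milk and secretory genes with a RefSeq promoter, namely Csn1s1, Csn1s2a, Csn2 and Glycam1, against 9.55% of 27025 genes with a promoter. A match is a description of the sequence, not a test of binding.

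Of 54532 genes listed, 13200 had a mean of at least 1 FPKM, 1227 at least 100 and 100 at least 1000 FPKM. The 13200 held 11785 of 22046 protein-coding genes (53.5%) and 255 of 5559 lincRNA genes (4.59%). Another 29530 genes had 0 counts in every tumor, among them 5625 protein-coding genes. Silent families were those of other organs and of germline-encoded sensing. Of 1107 olfactory receptor genes, 1030 had no count in any tumor, as did 299 of 330 vomeronasal receptors, 78 of 82 defensins and 56 of 58 keratin-associated proteins of hair. Of 15 interferon alpha and beta genes, 14 had no count and none reached 1 FPKM. Of 37 claudins, 17 had no count and 12 were kept.

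Markers of several other tissues and cells were at or near 0, and a few lists held 1 gene that was not. All 7 Y chromosome genes had 0 counts in the 4 tumors of these female mice. Of 7 pancreas genes 6 had no count, and of 7 mast cell markers 5 had none, namely Cpa3, Cma1, Tpsb2, Fcer1a and Ms4a2. Lung and pluripotency genes reached summed levels of at most 0.0417 and 0.622 FPKM. Salivary gland genes summed to between 3.30 and 57.9 FPKM, highest in tumor 3 through Prol1. Heart genes summed to between 15.5 and 23.2 FPKM, while Myl7 had 0 counts. Nearly all of the sum was assigned to Tnni3, the cardiac troponin I gene, with 19.5, 23.1, 15.5 and 17.3 FPKM. Tnni3 overlaps Dnaaf3 on the same strand, and how reads were split between the 2 genes cannot be told from the counts. Liver genes summed to between 0.489 and 7.23 FPKM, highest in tumor 3, where Ahsg, fetuin-A, had most of it, and Alb, albumin, had at most 0.0600 FPKM. Among lymphocytes, the 13 T cell markers summed to between 5.20 and 11.6 FPKM, with Cd3g at 3.34, 1.23, 0.896 and 2.15 FPKM. The 13 B and plasma cell markers summed to between 7.63 and 13.6 FPKM, and 3 of them had a mean of at least 1 FPKM. Ms4a1, the B cell gene of CD20, had no more than 0.0187 FPKM. Neutrophil markers summed to between 0.888 FPKM in tumor 3 and 6.97 FPKM in tumor 2. Of 10 such markers 3 had a mean of at least 1 FPKM and 1 was kept, while Mpo, Elane and Camp had 0 counts. Macrophage markers were the most abundant of the immune cell lists, at summed levels between 1209.9 and 3345 FPKM, most of which was Apoe, a gene that epithelial cells can also express. Endothelial markers summed to between 77.1 and 144 FPKM, with Esam at 28.6, 18.5, 24.9 and 33.5 FPKM and Pecam1, the adhesion molecule CD31, at 18.2, 7.15, 11.2 and 16.3 FPKM.

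Oncogenes varied slightly less among the tumors than genes in general. Of 22 oncogenes 21 were kept, with a median SD of 0.17 on the log2 scale, 0.771 times that of all genes kept. Against genes of like expression it was 0.857 times. None had an SD over 1, but only 2.31% of all genes kept did, so this says little for a list of 21. Akt1, a kinase downstream of ERBB receptors, had 303, 327, 388 and 362 FPKM, and Ctnnb1, beta-catenin, had 278, 279.9, 287 and 297 FPKM. Fgfr1 had 194, 183, 189 and 165 FPKM, and Ccnd1, the cyclin D1 needed for Neu-driven mammary tumors, had 117, 125, 116 and 118 FPKM. Myc had 37.5, 49.7, 70 and 53.1 FPKM, highest in tumor 3. Ccnd1, which overlaps Oraov1 on the opposite strand, Ctnnb1 and Fgfr1 each had an SD of no more than 0.08.

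Tumor suppressors were also expressed, with 15 of 16 kept, and 2 of them varied. Nf1, the RAS inactivator neurofibromin, had 236, 136, 729 and 297 FPKM from 18277, 13555, 60877 and 32377 counts, and tumor 3 was the highest by 5.36-fold against tumor 2. Its FPKM rests on an implied length of 4504 bases, against 15850 listed, which bears on its level but not on its fold between tumors. Rb1, the cell cycle brake, had 60.2, 94.5, 30.6 and 43.1 FPKM, highest in tumor 2 and lowest in tumor 3. It overlaps Rcbtb2 and Lpar6 on the opposite strand. Stk11, Map3k1 and Trp53 were steadier, with Trp53 at 47.7, 47, 43.8 and 51.1 FPKM. The counts give no information on mutations.

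Genes near which MMTV proviruses insert in other mouse mammary tumors were mostly at low levels. Of 13 such genes 2 had 0 counts in every tumor, against 25.5% of protein-coding genes. Only 4 had a mean of at least 1 FPKM, against 53.5% of protein-coding genes. These 4, which were also the genes kept, were Eif3e, Notch1, Notch4 and Map3k8, at mean levels from 3.13 to 79.5 FPKM. Wnt1, Wnt3, Fgf3, Fgf4, Fgf8, Fgf10, Rspo2 and Rspo3 reached at most 0.0803 FPKM in any tumor, and Wnt10b at most 0.338 FPKM.

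Targets that ERK signalling switches on were high in every tumor. All 14 were kept. Dusp6, the ERK phosphatase, had 303, 265, 502 and 422 FPKM and Etv5, a transcription factor of the same response, had 347, 292, 305 and 269 FPKM. Etv4 had 67, 45.3, 103 and 80.9 FPKM. Of the 14 genes 7 were highest in tumor 3, against 27.9% of all genes kept, and 8 were lowest in tumor 2, against 26.9%. The median SD of this list was 0.30.

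Proliferation genes moved together to a small extent. All 25 were kept, 18 were highest in tumor 3 and 7 in tumor 4, which leaves none highest in tumors 1 and 2. For tumor 4 the share over all genes kept was 22.9%. Pcna, the replication clamp, had 135, 112, 159.9 and 179 FPKM and Rrm2, of nucleotide synthesis, had 35.4, 35.8, 79 and 59.8 FPKM. Mcm2, a replication helicase subunit, had 24.8, 15.8, 38.2 and 40.5 FPKM. A list's score in a tumor is the middle value, across its genes, of the log2 deviation from the gene's mean over the 4 tumors. For proliferation it ran from -0.27 in tumor 2 to 0.34 in tumor 3.

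To ask which gene groups varied most, the SD over the 4 tumors of log2(CPM + 0.5) was taken for each of the 13622 genes with a mean normalized CPM of at least 1. The median SD was 0.22. It was over 1 for 315 genes (2.31%), over 2 for 24 genes and under 0.1 for 1739 genes. The biological coefficient of variation, the relative spread left after counting noise, was 0.267 over all genes. How many members of a list were highest or lowest in a tumor is read beside the same share over all genes. Over all genes kept, 21.8% were highest in tumor 1, 27.4% in tumor 2, 27.9% in tumor 3 and 22.9% in tumor 4, and 26.6% were lowest in tumor 1, 26.9% in tumor 2, 27.7% in tumor 3 and 18.7% in tumor 4. Lists were written by hand with earlier results of these data known, so their order is a description. No list was tested against others. Without tumor 4, 474 genes had an SD over 1.

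**Figure D2:**
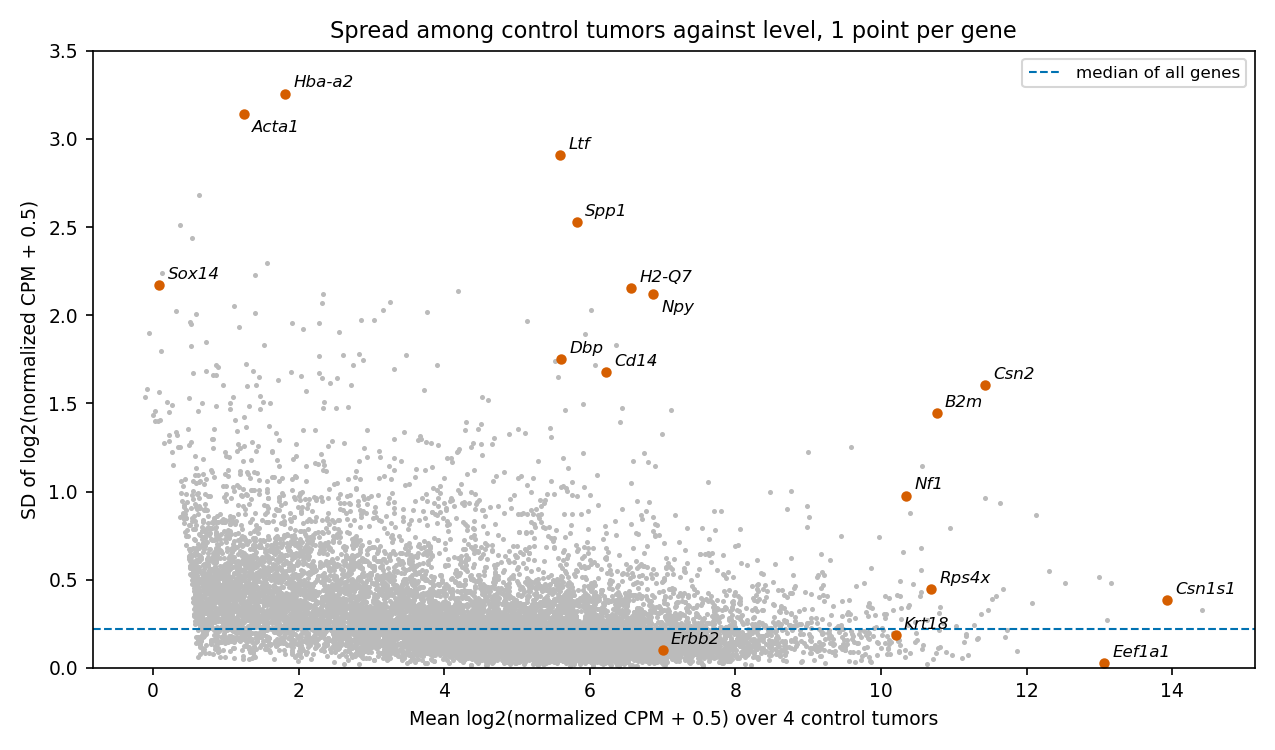
SD over the 4 control tumors of log2(normalized CPM + 0.5) against its mean, 1 grey point per gene for 13622 genes, with named genes in orange and the median SD of 0.22 as a dashed line. Erbb2, Krt18 and Eef1a1 lie below the median, while Hba-a2, Acta1, Ltf, Spp1, H2-Q7 and Npy lie above an SD of 2.

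Among hand-written lists with at least 3 genes kept, those with the largest median SD were the lists of skeletal muscle (1.79), adipocytes (0.96), fibrillar collagens (0.96), MHC class I (0.94), acute phase and neutrophil-attracting genes (0.89), myoepithelial genes (0.81), interferon-stimulated genes (0.75) and interferon-gamma response genes (0.69). Among families taken by symbol, Hox genes had a median SD of 1.17 over the 3 of 40 that were kept. At the other end, 84 cytosolic ribosomal protein genes had a median SD of 0.14, as did 37 proteasome genes, and the 4 identity markers had 0.15. Relative to the median of all genes, the median SD was 8.18 times as large for skeletal muscle, and 2.72 times without tumor 1. Leaving out tumor 2 lowered it from 4.36 to 2.82 times for fibrillar collagens, from 4.05 to 1.79 for acute phase genes, from 3.43 to 2.22 for interferon-stimulated genes and from 2.85 to 1.63 for milk genes. For MHC class I it was 4.28 times, and between 3.18 and 5.64 times with 1 tumor left out.

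**Figure D3:**
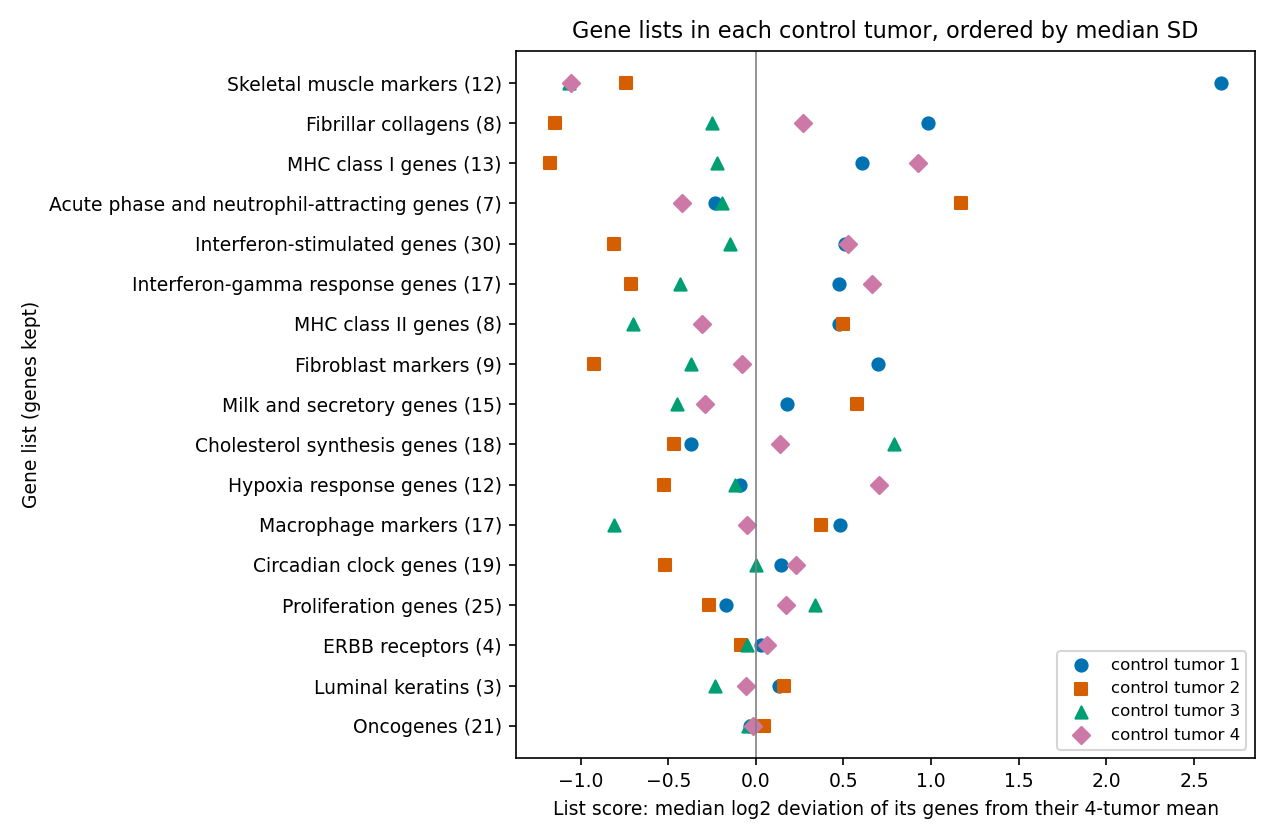
Score of 17 gene lists in each control tumor, as the median log2 deviation of the list's genes from their 4-tumor mean, with the number of genes kept in brackets and the lists ordered by median SD from bottom to top. Tumor 2 is lowest for MHC class I (-1.17) and interferon-stimulated genes (-0.81), tumor 3 is highest for cholesterol synthesis (0.79), and the oncogenes lie within 0.09 of each other.

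The MHC class I presentation genes, which display peptides to CD8 T cells, had the largest median SD of the lists whose summed mean level was above 1000 FPKM. All 13 were kept, all 13 were lowest in tumor 2 and 12 were highest in tumor 4. B2m, the light chain, had 4123, 575, 1441 and 4883 FPKM, an 8.49-fold range. The heavy chains H2-D1 and H2-K1 had 5329.8, 1537, 2935 and 6413 and 2338, 458, 1197 and 2543 FPKM. Tumors 1 and 4 were high, tumor 3 lay between, and tumor 2 was low. H2-Q7 had 117, 5.76, 61 and 169.6 FPKM and H2-Q6 had 119, 8.58, 53 and 143 FPKM, but these are near-identical copies and the split of reads between them is uncertain. Psmb8, an immunoproteasome subunit, had 132, 30, 64.4 and 176 FPKM, and the peptide transporter gene Tap1, which overlaps Psmb9 on the opposite strand, had 65.2, 21.3, 50 and 84.5 FPKM. Tapbp, which loads peptides and overlaps Zbtb22, differed less at 393, 226, 254 and 344 FPKM. The score of the list was 0.61, -1.17, -0.22 and 0.93 in tumors 1 to 4.

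Interferon-stimulated genes followed a like order. Of 31 genes 30 were kept, 26 of them were lowest in tumor 2, and 18 were highest in tumor 1 and 12 in tumor 4. Bst2, the antiviral factor tetherin, had 268, 100.2, 175 and 322 FPKM, and Irf7, a master factor of the interferon response that overlaps Phrf1 on the opposite strand, had 156, 44.1, 78.2 and 127 FPKM. Oasl2 varied most of the abundant genes at 77.3, 12.6, 38.1 and 59.5 FPKM, and Isg15, a ubiquitin-like protein, had 58, 16.4, 30.4 and 60.9 FPKM. In the interferon-gamma list 17 of 19 were kept, 10 were highest in tumor 4 and 7 in tumor 1. Iigp1, a GTPase that attacks parasite vacuoles, had 91, 30.1, 43.6 and 149 FPKM, and Nlrc5, the activator of MHC class I transcription, had 9.08, 2.76, 6.44 and 18.7 FPKM. Cxcl9, a chemokine that interferon-gamma induces, was near the limit at 2.18, 0.555, 0.0331 and 1.6 FPKM. The interferon alpha and beta genes were near 0 counts as given above, and NK and cytotoxic markers summed to 7.32, 5.04, 3.06 and 8.45 FPKM, lowest in tumor 3. The part of these cells in the interferon pattern was not tested.

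The promoters of Isg15 and B2m are shown because both genes were lowest in tumor 2. They are RefSeq sequences (GRCm38.p6) of 300 bases, with GAAANNGAA, the core of interferon response elements, in capitals wherever it was found on either strand. Isg15 lies on the minus strand at chr4:156200769-156201068 and B2m on the plus strand at chr2:122147437-122147736.
Isg15: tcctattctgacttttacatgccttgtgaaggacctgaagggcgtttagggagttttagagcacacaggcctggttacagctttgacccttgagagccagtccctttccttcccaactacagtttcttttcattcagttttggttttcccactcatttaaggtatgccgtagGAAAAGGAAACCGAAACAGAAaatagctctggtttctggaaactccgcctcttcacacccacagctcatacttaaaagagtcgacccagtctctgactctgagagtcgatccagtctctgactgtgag
B2m: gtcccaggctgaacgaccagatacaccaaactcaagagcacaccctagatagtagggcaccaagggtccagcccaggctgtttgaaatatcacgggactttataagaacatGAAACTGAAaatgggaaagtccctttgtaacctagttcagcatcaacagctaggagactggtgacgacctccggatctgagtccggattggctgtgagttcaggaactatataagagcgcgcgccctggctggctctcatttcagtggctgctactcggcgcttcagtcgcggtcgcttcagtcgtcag
Isg15 held 3 overlapping matches that began between 78 and 66 bases before its start, and B2m held 1 that began 139 bases before. The motif was in the promoters of 14 of 21 interferon-stimulated genes with a RefSeq promoter and of 3 of 12 MHC class I genes, B2m, H2-T22 and H2-T23, against 9.76% of 27025 genes. A missing match says only that these letters are not in the 300 bases searched.

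**Figure D4:**
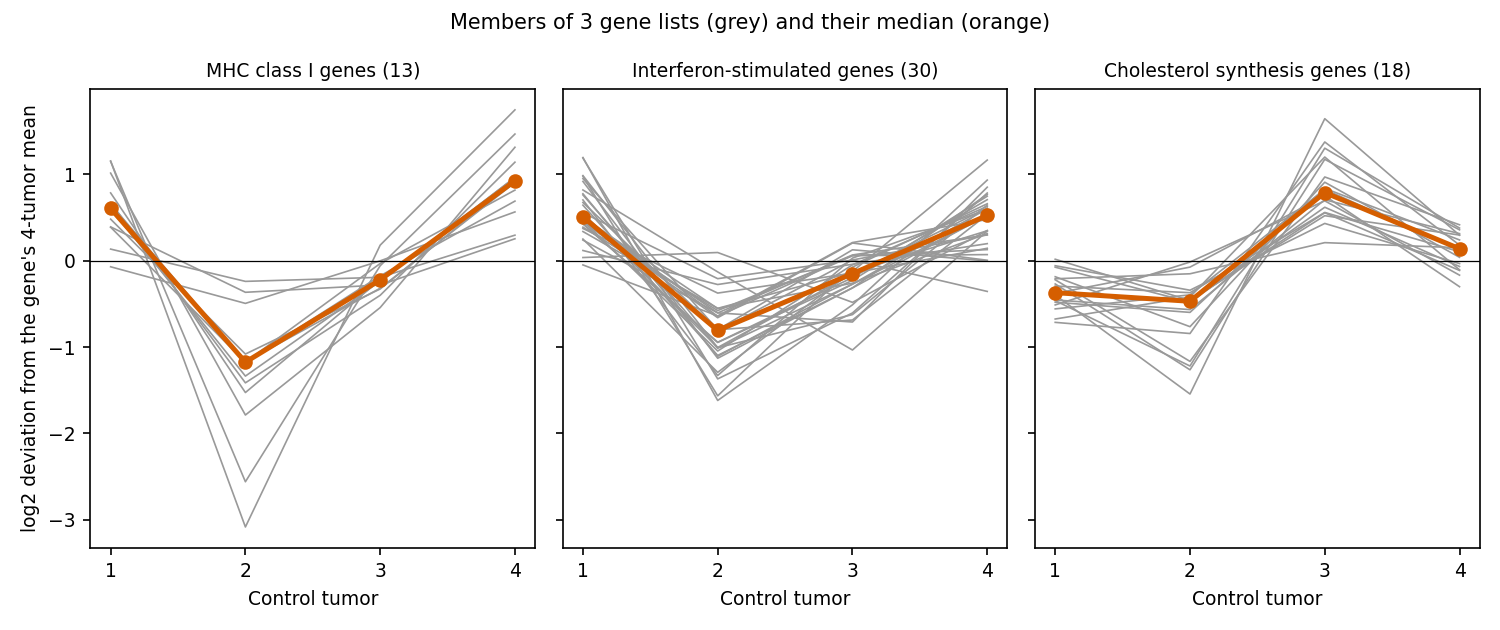
log2 deviation of each gene from its mean over the 4 control tumors, with 1 grey line per gene and the median in orange, for MHC class I, interferon-stimulated and cholesterol synthesis genes. All 13 MHC class I genes are lowest in tumor 2, as are 26 of 30 interferon-stimulated genes, and all 18 cholesterol synthesis genes are highest in tumor 3.

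MHC class II genes, which present peptides to CD4 T cells, had another order. Of 9 genes 8 were kept and 6 were lowest in tumor 3, against 27.7% of all genes kept. Cd74, the invariant chain, had 95.2, 213, 20.1 and 44.4 FPKM, and H2-Ab1 had 18.6, 36, 3.58 and 12 FPKM. Both were highest in tumor 2, in which MHC class I was lowest. The class II list as a whole was about as high in tumor 1 as in tumor 2, with scores of 0.48, 0.50, -0.70 and -0.31. Macrophage markers were lowest in tumor 3 for 16 of 17 genes kept, with Lyz2, lysozyme, at 221, 190.3, 84.2 and 124 FPKM and the complement gene C1qa at 152, 117, 59.8 and 91.2 FPKM. The median SD of macrophage markers was 2.69 times that of all genes, and 1.5 times without tumor 3. Cd14, the lipopolysaccharide co-receptor, varied most at 78.3, 188, 15.7 and 21 FPKM. Itgax, the CD11c integrin of dendritic cells and some macrophages, had 7.63, 9.31, 1.37 and 3.19 FPKM. Gpnmb, a glycoprotein of lipid-laden macrophages, had 0.195, 14.8, 0.331 and 1.4 FPKM and was high in tumor 2 alone, whereas Spp1, osteopontin, which macrophages and mammary epithelium both make, had 152, 351, 9.18 and 15 FPKM. Spp1 was high in tumors 1 and 2 and its range was 38.2-fold.

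Milk and secretory genes were highest in tumor 2 for 12 of 15 genes kept and lowest in tumor 3 for 9. Ltf, the iron-binding lactoferrin, had 384, 406, 8.31 and 16.9 FPKM, a 48.8-fold range with tumors 1 and 2 high and tumors 3 and 4 low. Wap, whey acidic protein, had 35.2, 60.9, 4.17 and 6.58 FPKM in the same order. Glycam1 had 11.6, 0.0932, 0.667 and 0.17 FPKM and was high in tumor 1 alone. Against the trend of the list, Csn1s2b had 50.8, 9.56, 47.2 and 80.5 FPKM and was lowest in tumor 2. The score of the milk list ran from -0.45 in tumor 3 to 0.58 in tumor 2. The caseins Csn1s1 and Csn3 varied less than most of this list, with SDs of 0.38 and 0.33, above the median of 0.22 for all genes.

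Acute phase and neutrophil-attracting genes were highest in tumor 2 for 5 of 7 genes kept. Lcn2 carried nearly all of the summed level and was 3.58-fold higher in tumor 2 than in tumor 3. Chil1, a chitinase-like protein, had 163, 447, 172 and 104 FPKM. Il1b, the interleukin, had 1.3, 4.81, 0.0667 and 0.664 FPKM, Saa1, serum amyloid A, had 0.0762, 2.58, 0.141 and 0.0811 FPKM, and Cxcl1 had 0.906, 2.69, 1.68 and 1.11 FPKM. Each of these genes except Lcn2 and Chil1 stayed under 5 FPKM.

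Fibrillar collagen and fibroblast genes were mostly highest in tumor 1 and lowest in tumor 2. Of 8 fibrillar collagen genes kept 7 were highest in tumor 1, against 21.8% of all genes kept, and 6 were lowest in tumor 2. Col1a1 had 89.4, 14.1, 33.9 and 48.6 FPKM and Col3a1 had 46.3, 7.48, 18.3 and 26.6 FPKM. Col11a1 did not share this order and was even at 119, 101, 109.9 and 109 FPKM, higher than Col1a1 in every tumor. Of 9 fibroblast markers kept 8 were highest in tumor 1, with Sparc, a matrix protein, at 270.5, 84.7, 131 and 239 FPKM and Postn, periostin, at 27, 3.56, 5.52 and 6.62 FPKM. Dcn, decorin, had 4.34, 0, 0.75 and 0.528 FPKM. The fibroblast list summed to 426 FPKM in tumor 1 and 168 in tumor 2. Other stromal lists had another order, with 4 of 6 pericyte markers and 8 of 15 basement membrane genes highest in tumor 4, against 22.9% of all genes kept.

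Skeletal muscle genes were present in tumor 1. All 12 genes kept were highest there. Genes were kept by their mean over the tumors, and some, such as Pvalb and Tnnt3, passed only through tumor 1. For those, being highest in tumor 1 follows from the filter. The median SD of the list was 8.18 times that of all genes, and 3.52 times with edgeR's filterByExpr as the filter. Acta1, skeletal actin, had 57.4, 0.877, 0.105 and 0.12 FPKM, and Mylpf, a fast myosin light chain, had 34, 2.82, 1.99 and 2.48 FPKM. Tnnt3, fast troponin T, had 20.4, 0.107, 0 and 0.0487 FPKM, the fast myosin gene Myh1 had 5.16, 0.0969, 0 and 0 FPKM, and Pvalb, parvalbumin, had 185 counts in tumor 1 and none in the others. The list summed to 177 FPKM in tumor 1 and to between 11.6 and 20.4 in the others. Tcap, described with the Erbb2 neighbours, was also highest in tumor 1. Mb, myoglobin, which overlaps Apol6 on the opposite strand, was not much higher in tumor 1 than in tumor 2, at 13.3, 12.8, 5.8 and 9.21 FPKM. The list of adipocyte markers had 6 of 14 genes kept, and the defining fat cell gene Adipoq had 0, 0, 0.707 and 0.541 FPKM, so its large median SD rests on genes of wider expression such as Cd36, at 289.5, 379.6, 60.1 and 256 FPKM.

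Hemoglobin genes were seen in every tumor. Hba-a1 had 588, 291, 248 and 208 FPKM and Hbb-bs had 425, 239, 216 and 175 FPKM, highest in tumor 1. Hba-a2 had the largest SD of all genes, with 0, 590, 422 and 0 counts, but it codes for the same protein as Hba-a1 and how reads of these copies were assigned cannot be told from the counts. Alas2, the heme synthesis enzyme of red cells that overlaps Apex2 on the opposite strand, was steadier at 10.5, 7.19, 8.62 and 6.4 FPKM.

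Metabolic lists separated the tumors in other ways. All 18 cholesterol synthesis genes were highest in tumor 3 and 13 were lowest in tumor 2. Srebf2, which controls the pathway, had 71.4, 65.8, 133 and 90.5 FPKM, and Insig1, its feedback sensor, had 17.1, 15.2, 75.9 and 30.9 FPKM. Fatty acid synthesis genes varied less, with a median SD of 0.33 and 7 of 11 highest in tumor 3. Fasn, fatty acid synthase, had 91, 103, 155 and 124 FPKM, and Scd1, the stearoyl-CoA desaturase, had 484, 708, 200.3 and 409.9 FPKM and was lowest in tumor 3, where most of the list was highest.

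Hypoxia response genes were highest in tumor 4 for 9 of 12 genes kept, and their median SD fell from 2.74 to 1.67 times that of all genes without tumor 4. Egln3, an oxygen-sensing hydroxylase, had 244, 140.0, 233 and 390.3 FPKM and Adm, adrenomedullin, had 5.86, 2.61, 8.61 and 19.5 FPKM. Vegfa, the endothelial growth factor, had 89.6, 55.9, 193 and 194 FPKM and was high in both tumors 3 and 4, while Ndrg1 had 94, 198, 48.9 and 115 FPKM and was highest in tumor 2. Of 14 glycolysis genes 11 were highest in tumor 4 and 10 lowest in tumor 2, with Gapdh at 1576, 1081, 1694 and 2125 FPKM and Pgam1 at 59.6, 47.8, 80.6 and 117 FPKM.

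Circadian clock genes were looked at after their values had been seen, because Npas2 and Dbp were among the genes that differed most in tumor 2. The clock is a feedback loop in which ARNTL with CLOCK or NPAS2 switches on the Per and Cry genes, whose products repress them in turn, and the output factors Dbp, Tef and Hlf. All 19 genes were kept and 6 of them had an SD over 1, against 2.31% of all genes kept. Dbp had 68.4, 5.36, 71.5 and 57.6 FPKM, Tef had 87.5, 13.7, 121 and 86.1 FPKM, Per2 had 7.88, 1.43, 11.5 and 11.2 FPKM and Per3 had 18.2, 4.19, 20.3 and 13.8 FPKM. Each of these was lowest in tumor 2. Npas2 had 1.21, 20.8, 1.28 and 0.978 FPKM and Arntl had 3.37, 11.2, 5.57 and 4.42 FPKM, and both were highest in tumor 2. Clock itself was even at 7.67, 7.79, 7.22 and 7.45 FPKM, and so was Rora at 14.9, 15.5, 15.7 and 16.3 FPKM. Nr1d1, a repressor of Arntl, had 31.4, 27.4, 22.8 and 22.8 FPKM, and overlaps Thra on the opposite strand, as Dbp overlaps Sphk2. Of the list, 11 of 19 genes were lowest in tumor 2, against 26.9% of all genes kept. Another 6 were highest there, which is near the 27.4% of all genes kept, so that count says little by itself. The median SD of the list was 2.39 times that of all genes, and 1.18 times without tumor 2. The hour at which each tumor was taken is not given in the sources used here, and its part in this pattern was not tested.

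The promoters of Tef and Per3 are shown because they carry 2 of the motifs through which the loop is known to act. CACGTG, the E-box, is bound by ARNTL complexes, and TTATGNAA, the D-box, by DBP, TEF and HLF. Both strands were searched, and capitals mark the E-box in Tef and the D-box in Per3. Tef lies on the plus strand at chr15:81802423-81802722 and Per3 on the minus strand at chr4:151044616-151044915 (RefSeq, GRCm38.p6).
Tef: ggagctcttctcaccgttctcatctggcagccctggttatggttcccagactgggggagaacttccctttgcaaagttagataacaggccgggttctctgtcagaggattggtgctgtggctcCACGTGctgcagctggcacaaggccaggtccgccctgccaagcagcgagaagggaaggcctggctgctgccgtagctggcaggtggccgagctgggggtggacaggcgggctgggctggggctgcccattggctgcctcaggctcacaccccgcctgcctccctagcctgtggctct
Per3: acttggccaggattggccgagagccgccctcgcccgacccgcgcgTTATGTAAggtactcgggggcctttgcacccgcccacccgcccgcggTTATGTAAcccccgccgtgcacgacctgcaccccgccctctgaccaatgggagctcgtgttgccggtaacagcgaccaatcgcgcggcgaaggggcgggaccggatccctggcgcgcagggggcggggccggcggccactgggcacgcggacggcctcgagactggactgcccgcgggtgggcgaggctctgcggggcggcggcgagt
The E-box of Tef began 127 bases before the start shown, which is 1 of 2 promoters listed for the gene. The 2 D-boxes of Per3 began 205 and 158 bases before its start. The E-box was found in the promoters of 5 of 16 clock genes, Bhlhe41, Ciart, Cry1, Per1 and Tef, against 8.09% of 27025 genes. The D-box was found in 2 of 16, Per1 and Per3, against 3.99%.

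**Figure D5:**
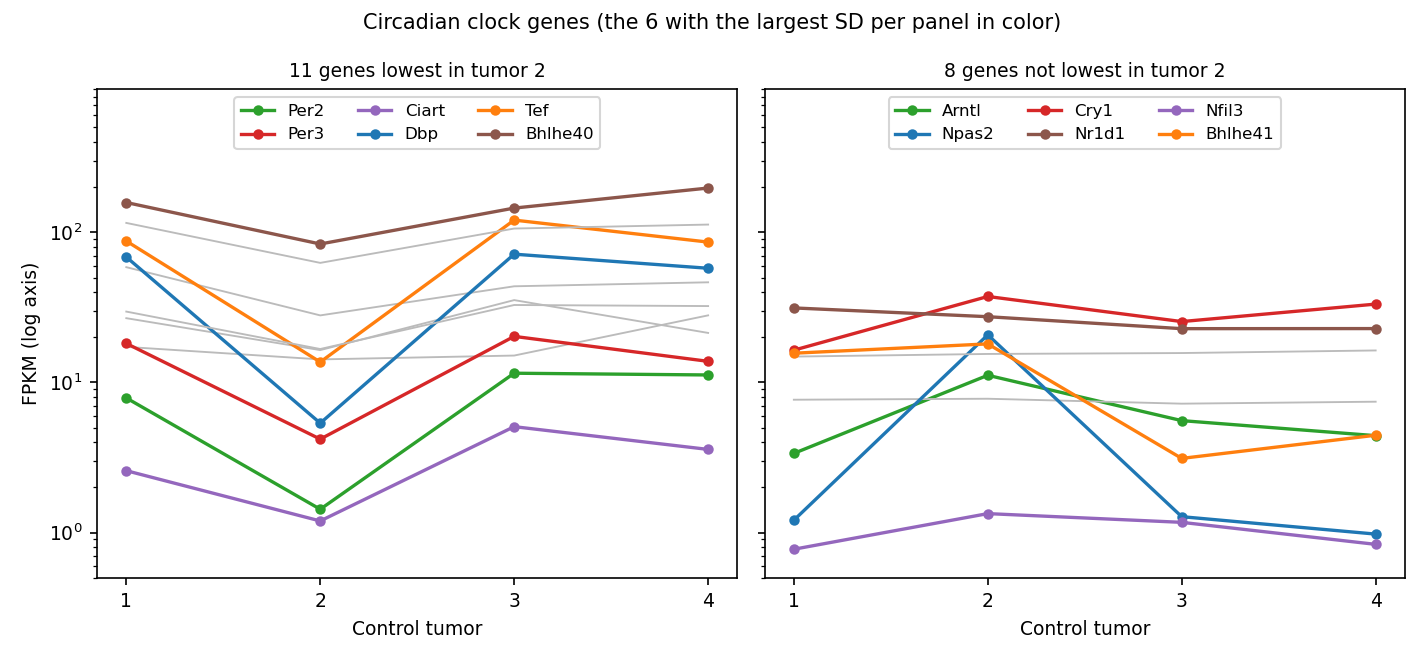
FPKM on a log axis of 19 circadian clock genes in the 4 control tumors, as 11 genes lowest in tumor 2 (left) and 8 that were not (right), with the 6 genes of largest SD in each panel in color and the others in grey. Dbp, Tef, Per2 and Per3 drop in tumor 2, whereas Npas2 and Arntl peak in it.

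Each tumor also had single genes of its own. Tumor 4 was the only one with Sox14, a transcription factor of neural development, at 226 counts against 0 in the others. Sytl4, which tethers secretory granules, had 3.76, 4.96, 4.29 and 0.0363 FPKM and Tmlhe, of carnitine synthesis, had 7.29, 6.69, 7.26 and 0.238 FPKM, and both were near 0 in tumor 4 alone. Tumor 3 had the highest Prol1, a proline-rich secreted protein gene, at 2.0, 2.76, 56.4 and 7.42 FPKM, and the highest Il20rb, an interleukin receptor chain, at 43.2, 33.9, 335 and 102 FPKM. Rps4x, a ribosomal protein gene on the X chromosome, had 1809, 1852, 3523 and 1754 FPKM and was highest in tumor 3. Tumor 1 had 1 count of Ccdc114, a cilium gene, which had 0.0328, 6.24, 5.99 and 4.68 FPKM. Il18r1, the interleukin-18 receptor, had 5.03, 14.3, 0.598 and 0.916 FPKM and was highest in tumor 2. Npy, neuropeptide Y, had 1057, 124, 35.1 and 385 FPKM and Apoc1, an apolipoprotein, had 81.4, 584, 144 and 1051 FPKM. Npy was highest in tumor 1 and Apoc1 in tumor 4.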

How the data were processed

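Poly(A)-enriched libraries were made from 1 ug of total RNA of each tumor and sequenced by Novogene. The authors deposited raw read counts for 54532 genes, as whole numbers without normalization. The FPKM values the authors deposited divide the same counts by library size and by a gene length that was a median of 0.449 times the length listed, whose definition was not given in the sources used here. The submitters' processing notes name STAR 2.6.1d, featureCounts 1.5.0-p3 and DESeq2, while the strand setting and genome build are not given in the sources used here. Of 54409 genes found in GENCODE M21 (GRCm38), 98.3% had the same start and end.

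The 4 control columns were used and the 8 columns of treated tumors were not. Nothing in the labels says more than that the tumors are separate samples of 1 group. No groups were therefore tested against each other, and spreads are those between these tumors. Dixon's limit was used only to flag single tumors, as described below. Counts were scaled with TMM (edgeR 4.0.16, R 4.3.3) and transformed as log2(CPM + 0.5). Genes with a mean of at least 1 normalized CPM were kept (13622). Gene dispersions came from an intercept-only edgeR fit. Tables were handled with pandas 2.3.3.

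Genes were named by rule: the 4 markers, the 20 nuclear genes with the highest mean FPKM, all members of lists of up to 8 genes, otherwise the 4 highest by FPKM and the 3 with the largest SD, list members at 0 counts, the 20 genes with the largest SD, and per tumor the 8 genes highest and 4 lowest against the median of the others. The members, lists and motifs were chosen with earlier results of these data known. Named outside the rule, after their values were seen, were Adipoq, Areg, Csn1s2b, Cxcl1, Elf5, Esr1, Fgf3, Fgf10, Foxa1, H2-T22, H2-T23, Isg15, Ms4a1, Nlrc5, Pgap3, Pgr, Psmb8, Psmb9, Rps4x, Rspo2, Rspo3, Rxra, Rxrg, Tap1, Trp53, Wnt1, Wnt3, Wnt10b, Prlr and the clock genes other than Dbp, Npas2 and those the rule gives. A few genes that the rule names are not reported here. Gene models without an official symbol were counted and not described. Promoters were matched by symbol to a RefSeq table (GRCm38.p6), which held 21 of 31 interferon-stimulated, 12 of 13 MHC class I, 12 of 16 milk and 16 of 19 clock genes. The alternatives were other scaling factors, filters, scales and leaving out each tumor in turn.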

Additional observations from a re-analysis of the deposited data

Results flagged for a closer look

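In groups of 4 tumors, the gap between the highest or lowest tumor and its nearest neighbour was divided by the whole range, and values over Dixon's 95% limit for 4 samples are given here. Chance alone gives about 1 in 20. Of 46 lists with at least 3 genes kept, 3 had such a score, which is near that share. Hormone receptors and luminal factors were apart in tumor 2 (0.978), with scores of -0.03, 0.22, -0.04 and -0.03 in tumors 1 to 4. Acute phase and neutrophil-attracting genes were apart in tumor 2 (0.857) and skeletal muscle markers in tumor 1 (0.913). Some of the muscle genes passed the filter only through tumor 1, so the muscle score follows in part from the filter.

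Of 111 genes that were kept and looked at singly, 15 were apart on the log2 scale. In tumor 1 these were the muscle genes Myh1 (0.832), Myh4 (0.901), Tnnt3 (0.953) and Pvalb (1), of which Myh4, a fast myosin, had 2.97, 0.0303, 0 and 0.0346 FPKM. In tumor 2 they were the clock genes Dbp (0.940), Tef (0.861) and Npas2 (0.943), the milk gene Lalba (0.833), the prolactin receptor gene Prlr (0.875) at 20.5, 28.2, 21.3 and 19 FPKM, and Rxra (0.848). In tumor 3 they were Rps4x (0.921) and Tpt1 (0.881), the translation-associated gene with 4842, 4785, 3772 and 4837 FPKM. In tumor 4 they were Sox14 (1), Sytl4 (0.904) and Tmlhe (0.979). Part of these genes were looked at because they differed in 1 tumor, so their number is not a measure of how often this occurs. Myh1, Myh4, Tnnt3 and Pvalb passed the filter only through tumor 1, and Sox14 only through tumor 4. For those genes, standing far above the other tumors follows from the filter. Pvalb and Sox14 had 0 counts in every other tumor, which fixes their value at 1.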

How the results depend on the processing

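No paired analysis was possible because only the control group was used. Of 164 values of the main results under alternatives that kept all tumors, 151 stayed within the limits set (1.5 times for counts and spreads, 1 SD for levels). The number of genes with an SD over 1 was 315, and became 167 with a mean CPM of at least 5, 206 with edgeR's filterByExpr and 176 on the log2(FPKM + 1) scale. Relative to the median SD of all genes, skeletal muscle markers moved from 8.18 to 14.0 with a mean CPM of at least 5, to 3.52 with filterByExpr and to 4.2 against genes of like expression. MHC class II genes moved from 3.09 to 1.66 against genes of like expression, and luminal keratins from 0.839 to 1.68 without a filter. On normalized CPM in place of FPKM, which is not per length, Erbb2 lay at percentile 89.1 of expressed genes (75 by FPKM), Krt8 at 99.2, Krt18 at 99.4 and Epcam at 99.8. Without a filter the median Spearman correlation between tumors was 0.948, against 0.971. The cause of these shifts was not tested beyond the change of filter, scale or reference itself.

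Leaving out each tumor in turn gave ranges of 248 to 474 genes with an SD over 1 and of 0.968 to 0.981 for the Spearman correlation. Relative to the median SD of all genes, the ranges were 2.72 to 10.6 for skeletal muscle markers, 2.22 to 4.13 for interferon-stimulated genes, 1.18 to 3.24 for clock genes, 1.63 to 3.30 for milk and secretory genes and 1.79 to 5.42 for acute phase genes. They were 2.82 to 5.75 for fibrillar collagens, 0.444 to 1.20 for ERBB receptors, 1.5 to 3.37 for macrophage markers, 1.67 to 3.39 for hypoxia genes and 0.593 to 1.58 for luminal keratins. The depth of 17192534 to 24223315 counts limits statements on genes near 3 counts. Single libraries per tumor give no technical spread, and 4 tumors give an imprecise SD. Of 833 SDs of single named genes under alternatives that kept all tumors, 797 stayed within 1.5 times. The clock list and the chromosome medians were added last, after the values of these tumors were seen. The other lists were also chosen with earlier results of these data known.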

Other observations

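Chromosomes were compared for shifts of all their genes together. For 20 chromosomes with 276 to 913 genes each, the median log2 deviation per chromosome and tumor lay between -0.05 and 0.05, so no chromosome as a whole stood higher or lower in a tumor by more than this. This measure cannot show gains or losses of parts of a chromosome.

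Stress and early response genes were expressed in every tumor. Immediate early genes, which respond within minutes to growth factors and to tissue handling, were highest in tumor 2 for 10 of 13 genes, with Jun at 24.8, 48.7, 26.3 and 26.3 FPKM and Fos at 25.3, 37.7, 12.3 and 18.4 FPKM. Heat shock genes were lowest in tumor 2 for 7 of 9, with Hspa8, a constitutive chaperone, at 1298, 717, 884 and 1219 FPKM. Genes of the unfolded protein response were highest in tumor 4 for 8 of 12, with Hspa5, the chaperone BiP, at 678, 498, 642 and 870.4 FPKM. Of 12 NRF2 target genes kept, Nqo1, a quinone reductase, varied most at 17.2, 41.9, 5.0 and 6.19 FPKM, while Txnrd1 was even at 62, 65.8, 69 and 65.9 FPKM. Histone genes, of which 23 of 104 were kept, were highest in tumor 3 for 18. Poly(A) selection leaves out most transcripts of replication-dependent histone genes, so these levels cover only part of them.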
